A study of Mus musculus with 23 samples.

Results

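The transcripts of 8 chemokine genes, Cxcl5, Cxcl1, Cxcl2, Cxcl3, Ccl20, Ccl2, Cxcl16 and Cx3cl1, were followed through cultured mouse pancreatic ductal adenocarcinoma (PDAC) cells. They were chosen by symbol, by their measured levels in these same libraries, and were all found among the 27207 genes of the table. Their levels and fold changes in the 6 groups are therefore descriptions: no p-value is given for them, and the number of them past the threshold used for all genes supports nothing. Tests are read only for other genes, in lists that were also chosen with earlier results of these data known. The study asked how tumor cells build spheres in Matrigel or branched tubes in floating collagen gels, and which genes change on the way. Bulk RNA was sequenced from 23 libraries. KC cells, primary tumor cells of a mouse line with Ptf1a Cre/+, were profiled in 2D culture (n = 6), as organoids in growth factor reduced Matrigel at day 13 (n = 3), and as organoids in collagen type I at day 7 (n = 3) and at day 13 (n = 5 in batch 1, n = 3 in batch 2). KPC cells, from a mouse line with Pdx1 Cre/+, were grown in collagen to day 13 (n = 3, batch 2). All groups share a serum-containing medium, and by the labels the cells of each genotype came from 1 mouse, so that genotype and mouse cannot be told apart. Organoids were freed with collagenase before lysis while 2D cells were lysed directly, so that culture format and digestion cannot be told apart either.

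Chemokines are small secreted proteins that guide leukocytes along a gradient by binding G protein-coupled receptors. In pancreatic cancer, ligands of the receptor Cxcr2 draw neutrophils and myeloid suppressor cells, Ccl2 draws monocytes through Ccr2, and Ccl20 draws Ccr6-bearing T cells and immature dendritic cells. Cxcl16 and Cx3cl1 differ from the rest in that they are made as transmembrane proteins, which tether cells bearing Cxcr6 or Cx3cr1 and are released as soluble ligands by proteases such as Adam10 and Adam17. Many of these genes are induced by nuclear factor kappa B (NF-kB) downstream of Il1, Tnf and Toll-like receptors, and several of their mRNAs are short-lived because AU-rich elements in the 3′ untranslated region (UTR) recruit decay factors such as Zfp36.

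The 4 Cxcr2 ligands lie together on the forward strand of chromosome 5, in 146.6 kb of GRCm38 that hold 7 protein-coding genes in the order Cxcl5, Ppbp, Pf4, Cxcl3, Cxcl15, Cxcl1 and Cxcl2. Cxcl5 spans chr5:90759360-90761624, Cxcl3 chr5:90786103-90789600, Cxcl1 chr5:90891241-90893115 and Cxcl2 chr5:90903871-90905938. Ccl20 lies on chromosome 1 (chr1:83116766-83119167, forward strand), Ccl2 and Cxcl16 on chromosome 11 (chr11:82035571-82037453, forward, and chr11:70453983-70459984, reverse) and Cx3cl1 on chromosome 8 (chr8:94772009-94782427, forward). The antisense gene Gm17268, not analysed here, spans Ccl2, and Zmynd15 overlaps the 5′ end of Cxcl16 on the opposite strand. Whether the counting used strand is not given in the sources used here. Because the Cxcr2 ligands are similar in sequence, reads shared between them could have been assigned to the wrong copy.

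Promoter windows from RefSeq (GRCm38.p6), which run from upstream of each gene's start to just past it, matched 5 of the 8 genes: Cxcl1, Cxcl2, Cxcl3, Ccl20 and Cx3cl1. Those of Cxcl1, Cxcl2 and Cxcl3 shared the same letters, GGAATTTCC, at 62 to 70, 88 to 96 and 64 to 72 bases before the start. On either strand these letters were present in 0.317% of the 32851 promoters of that length. A match to the wider NF-kB consensus, on either strand, was present in 8.46% of promoters, among them those 3, where it overlaps these letters, and that of Ccl20, and not in the window of Cx3cl1. The AP-1 motif TGANTCA, present in 7.81% of promoters, was in none of the 5 windows. The stretches that run from 120 to 31 bases before the start are shown because they hold these matches, with the letters of the NF-kB consensus in capitals. They are chr5:90891125-90891214 (Cxcl1), chr5:90903779-90903868 (Cxcl2), chr5:90785981-90786070 (Cxcl3) and chr1:83116646-83116735 (Ccl20), all on the forward strand.
Cxcl1: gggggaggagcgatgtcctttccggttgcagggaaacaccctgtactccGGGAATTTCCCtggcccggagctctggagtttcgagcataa
Cxcl2: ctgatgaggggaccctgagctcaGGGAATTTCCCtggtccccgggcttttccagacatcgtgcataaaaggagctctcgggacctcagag
Cxcl3: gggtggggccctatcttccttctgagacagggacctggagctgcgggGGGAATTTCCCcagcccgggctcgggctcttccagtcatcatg
Ccl20: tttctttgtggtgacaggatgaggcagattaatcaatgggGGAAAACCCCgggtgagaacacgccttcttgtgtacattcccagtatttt

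The 3′ UTRs of the genes differed in how often they hold ATTTA, the core letters of an AU-rich element, counted in the longest annotated 3′ UTR of each gene (GENCODE M21). Cxcl1 held 7 in 595 bases, Cxcl3 5 in 648, Cxcl2 11 in 1497 and Ccl20 9 in 1053, and their densities of 7.35 to 11.8 per kb lay above those of 98.6% to 99.8% of the tested genes. Cxcl5 followed with 5 in 1114 bases (4.49 per kb, above 93.5% of genes) and Ccl2 with 1 in 278 (3.6 per kb, above 88.6%). The transmembrane pair stood lower, Cxcl16 with 2 in 1424 bases (1.4 per kb, above 53% of genes) and Cx3cl1 with 1 in 1874 (0.534 per kb, above 31.7%). The densest windows of 26 bases in the most and the least dense of these UTRs are shown with each ATTTA in capitals, a description of letters and not of decay.
Cxcl1: cctATTTATTTAtgtATTTATTTAtt
Cx3cl1: agtgaacaattATTTAttggattccc

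Levels are given as CPM (counts per 1e6), UMI counts scaled by library size and edgeR's TMM factors. Total counts per library ran from 1221451 to 2471058, with a median of 1845921, so that 3 counts, the limit that a count of 0 allows, corresponded to 1.15 to 3.2 CPM; this covers counting error only. The labelled identity was checked against fixed markers. The 8 epithelial markers summed to 6980 to 13800 CPM in every library, led by Krt18, Krt19 and Krt8 or Krt7. Of the 5 endothelial markers none exceeded 3 counts in any library. Of the 8 leukocyte markers in the table, Cd68 was above 3 counts in all 6 groups and only 1 other was above 3 counts in any library, at day 7, while Ly6g, Cd79a and Lyz2 were at 0 in most groups. Of 8 fibroblast markers, Col1a2 led with group means of 23.8 to 60.7 CPM. The 2D group fell into 2 sets. Replicates 1 to 3 and replicates 4 to 6 lay 29 to 33.2 apart (log2 CPM distance over the 500 most variable genes), against 11 to 17.3 within either set and 9.97 to 17.6 within the other groups. Some fitted fold changes of 2D are therefore also given for each set.

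**Figure D1:**
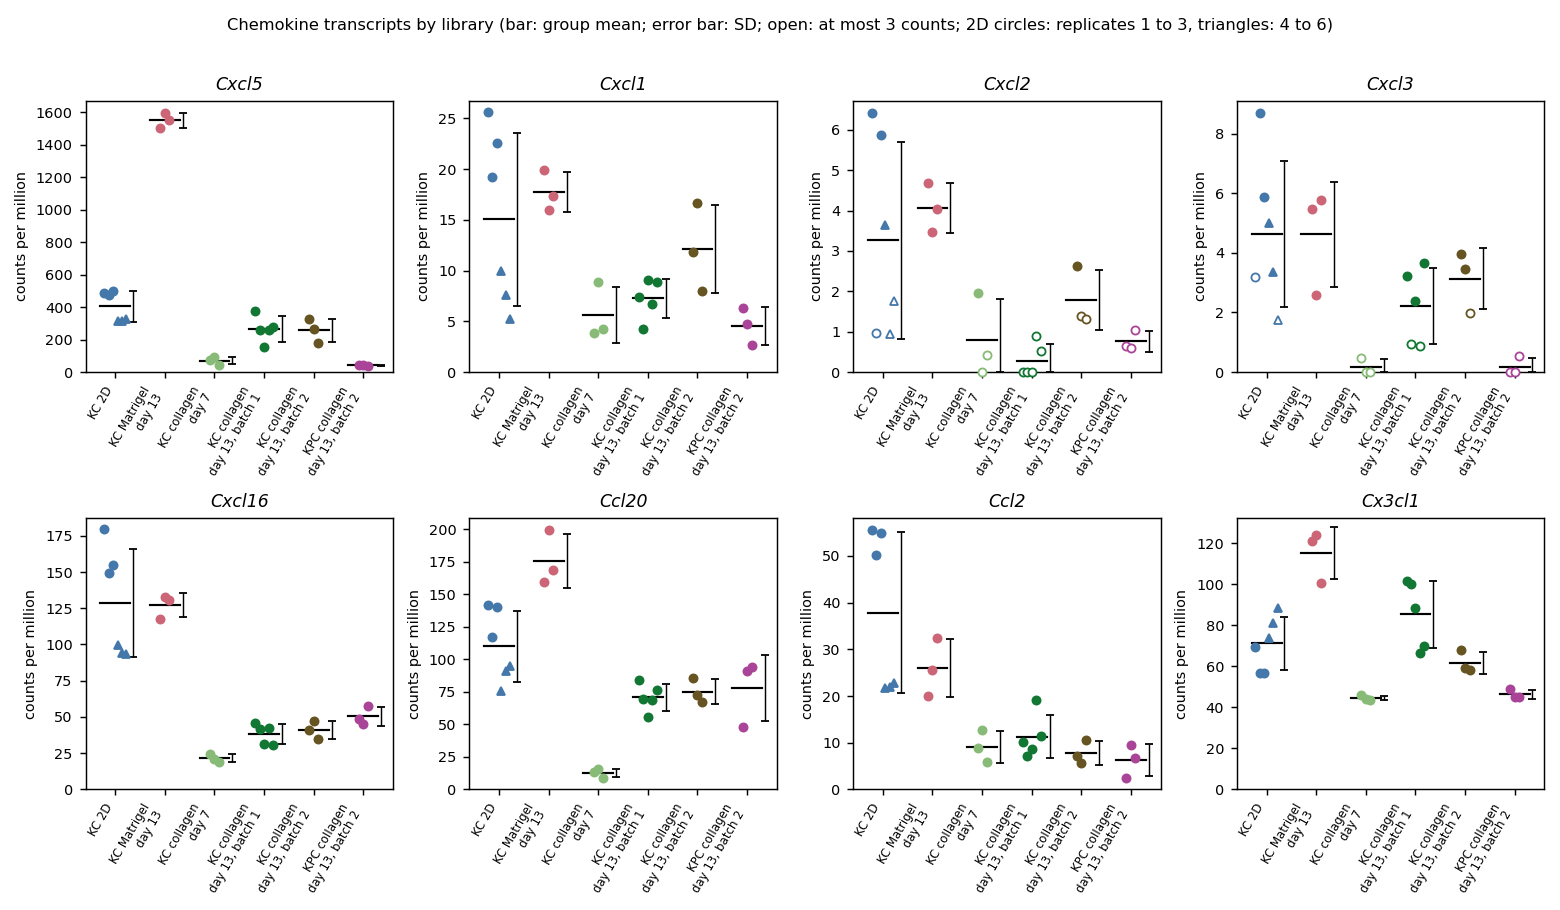
CPM (y axis, linear, from 0) of the 8 chemokine transcripts in each of the 23 libraries, by group (x axis), with the group mean as a bar and the SD as an error bar cut at 0; open symbols are libraries with at most 3 counts of the gene, and 2D replicates 4 to 6 are triangles. Cxcl5 stood at 1504 to 1594 CPM in Matrigel and at 37.3 to 45.7 CPM in KPC organoids, and Cxcl2 and Cxcl3 had at most 3 counts in 15 and 11 of the libraries.

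Cxcl5, a neutrophil chemokine of epithelial cells, varied most with culture and genotype among the transcripts above the detection limit. In Matrigel the 3 libraries held 1504, 1594 and 1550 CPM (1549 ± 45.3, SD, n = 3). Collagen organoids of day 13 held 377, 260.4, 155, 257 and 279 CPM in batch 1 (266 ± 78.9, n = 5). Every Matrigel library was thus above every collagen library, 5.84-fold in the fit (log2 fold change 2.55 ± 0.22, SE), and in bulk samples fewer expressing cells and less RNA per cell cannot be told apart. At day 7 collagen organoids held 76.0, 90.9 and 45.7 CPM (70.9 ± 23, n = 3), 3.74-fold below day 13 and without overlap. In batch 2, KC organoids held 325.5, 263 and 181 CPM (256 ± 72.5, n = 3) and KPC organoids 45.7, 41.6 and 37.3 CPM (41.5 ± 4.2, n = 3). The KPC libraries were 6.17-fold below KC (log2 fold change -2.63 ± 0.29), while the batches of KC organoids differed by only 1.04-fold and overlapped. They were also the lowest of all 23, but the highest KPC library (45.69 CPM) nearly equalled the lowest of day 7 (45.74 CPM). The 2D cells ran from 312 CPM through a median of 403 to 502 CPM (n = 6), below Matrigel without overlap. The order of the group means was Matrigel, 2D, collagen day 13 (both batches), collagen day 7 and KPC. Of these, 2D and the 2 day 13 KC groups overlapped their neighbours, and day 7 and KPC nearly met.

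Cxcl1, a prompt NF-kB target and Cxcr2 ligand, was measured at 5 to 51 counts per library, so that its groups spread widely. The Matrigel libraries held 19.9, 16.0 and 17.4 CPM (17.8 ± 2.0, n = 3). Collagen day 13 libraries of batch 1 held 7.38, 4.29, 9.04, 6.68 and 8.88 CPM (7.25 ± 1.93, n = 5). These did not overlap, a 2.45-fold difference (log2 fold change 1.30 ± 0.36). Day 7 organoids, at 3.90, 8.86 and 4.24 CPM (5.66 ± 2.77, n = 3), overlapped day 13 with a log2 fold change of -0.32 ± 0.43. KC organoids of batch 2 held 11.9, 16.7 and 7.96 CPM (12.2 ± 4.4, n = 3) and KPC organoids 6.35, 4.76 and 2.62 CPM (4.58 ± 1.87, n = 3). The KPC libraries lay below the KC libraries of batch 2 without overlap, with a log2 fold change of -1.42 ± 0.52, but overlapped those of batch 1. The 2D libraries ranged from 5.27 CPM through a median of 14.6 to 25.6 CPM and overlapped every other group. Each group overlapped the next in the order of means, from Matrigel through 2D, the 2 day 13 KC groups and day 7 to KPC.

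Cxcl3 and Cxcl2, both Cxcr2 ligands, had few counts, Cxcl2 near the detection limit as a gene and Cxcl3 near it at day 7 and in KPC organoids. Cxcl3 had at most 14 counts in a library, at most 3 in 11 of 23 and 0 in 4. It passed the filter on low counts with 108 counts in all, and Cxcl2, with 73, did not. Cxcl3 held 5.47, 2.60 and 5.78 CPM in Matrigel and 3.23, 0.954, 2.38, 0.89 and 3.66 CPM in collagen at day 13, batch 1, which overlapped. At day 7 its 3 libraries held 1 count in all, and the 3 KPC libraries likewise held 1 count in all. Against the limit of 3 counts per library, the mean of collagen organoids of day 13, batch 1, was at least 1.71-fold higher than day 7. That of KC organoids of batch 2, at 3.95, 3.47 and 1.99 CPM, was at least 1.79-fold higher than KPC organoids. These bounds are for group means and not for each library, as batch 1 replicates 2 and 4 had only 2 counts each. The 2D libraries held 1.76 to 8.68 CPM of Cxcl3, with a median of 4.17 CPM, and their mean was at least 3.58-fold higher than day 7. That mean was 5.92 CPM in 2D replicates 1 to 3 and 3.36 CPM in replicates 4 to 6. Cxcl2 had at most 12 counts in a library, at most 3 in 15 of 23 and 0 in 4. It was highest in Matrigel, at 4.69, 3.46 and 4.05 CPM (7 to 12 counts), and stayed at or under 3 counts in every library of collagen day 13 batch 1 and of KPC. The mean of Matrigel was thus at least 2.85-fold higher than collagen at day 13 for Cxcl2. That of 2D, at 0.955 to 6.41 CPM (median 2.69 CPM), was at least 2.29-fold higher. The 2D mean of Cxcl2 was 4.42 CPM in replicates 1 to 3 and 2.11 CPM in replicates 4 to 6. In 2D replicates 2, 5 and 6 it had only 1, 2 and 3 counts. No bound was computed for either 2D set.

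Ccl20, the single known chemokine ligand of Ccr6, was marked by low values at day 7. The 3 day 7 libraries held 13.2, 15.4 and 8.89 CPM (12.5 ± 3.3, n = 3). The day 13 collagen libraries of batch 1 held 83.9, 69.2, 55.7, 69.0 and 76.3 CPM (70.8 ± 10.4, n = 5). All day 7 libraries were below all others of the series, 5.63-fold below day 13 (log2 fold change -2.49 ± 0.25). Matrigel organoids held 159, 199 and 169 CPM (176 ± 20.9, n = 3), above every other library, and 2.48-fold above collagen at day 13 (log2 fold change 1.31 ± 0.19). KPC organoids, at 48.2, 91.0 and 93.9 CPM, and KC organoids of batch 2, at 85.7, 72.8 and 66.9 CPM, overlapped, with a log2 fold change of 0.06 ± 0.23. The 2D libraries ran from 75.8 CPM through a median of 106 to 142 CPM. In the order of the means, Matrigel, 2D, the 3 collagen groups of day 13 and day 7, only Matrigel and day 7 were clear of their neighbours.

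Ccl2, the monocyte chemokine, had its highest group mean in 2D, as did Cxcl16 and Cxcl3 by margins far smaller than their spread. The 2D libraries ran from 21.8 CPM through a median of 36.5 to 55.5 CPM (37.9 ± 17.2, n = 6). Matrigel organoids held 19.9, 25.5 and 32.4 CPM (25.9 ± 6.3, n = 3) and overlapped 2D. Collagen organoids of day 13 in batch 1 held 10.1, 7.15, 8.56, 19.1 and 11.5 CPM (11.3 ± 4.7, n = 5). Both 2D and Matrigel cleared these libraries without overlap, by 3.1-fold and 2.25-fold (log2 fold changes 1.63 ± 0.31 and 1.17 ± 0.35), Matrigel by a margin of less than 1 CPM. Day 7 organoids (8.78, 12.7 and 5.93 CPM), KC organoids of batch 2 (7.25, 5.55 and 10.6 CPM) and KPC organoids (2.54, 9.52 and 6.82 CPM) overlapped one another and day 13 of batch 1. Counts in these 4 collagen groups ran from 4 to 43 per library.

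Cxcl16 was high in 2D and Matrigel and low in every collagen group. The 2D libraries ran from 93.7 CPM through a median of 125 to 179 CPM and those in Matrigel held 118, 133 and 131 CPM (127 ± 8.3, n = 3). Collagen organoids of day 13 held 46.1, 41.5, 31.4, 42.3 and 30.3 CPM in batch 1 (38.3 ± 7.0, n = 5). No collagen library of any group exceeded 57.7 CPM, and neither 2D nor Matrigel overlapped them. The fitted log2 fold changes over collagen day 13 were 1.71 ± 0.17 for 2D and 1.73 ± 0.19 for Matrigel. Day 7 libraries were lower again, at 24.4, 21.2 and 19.1 CPM, 1.79-fold below day 13 without overlap. KC organoids of batch 2 (40.9, 47.2 and 34.5 CPM) and KPC organoids (48.2, 45.2 and 57.7 CPM) overlapped, with a log2 fold change of 0.31 ± 0.23.

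Cx3cl1, fractalkine, varied least, 2.59-fold between the highest and the lowest group mean. It held 121, 124 and 100.7 CPM in Matrigel (115 ± 12.8, n = 3) and 101.4, 100.1, 88.5, 66.3 and 70.03 CPM in collagen at day 13, batch 1 (85.3 ± 16.5, n = 5). These groups overlapped, with a log2 fold change of 0.44 ± 0.14. Day 7 organoids lay close together at 45.8, 44.3 and 43.6 CPM (44.6 ± 1.1, n = 3), 1.91-fold below day 13 and without overlap. Batch 2 KC organoids held 67.9, 59.0 and 58.3 CPM (61.7 ± 5.3, n = 3) and KPC organoids 48.9, 45.2 and 45.1 CPM (46.4 ± 2.1, n = 3), which were lower without overlap (log2 fold change -0.41 ± 0.18). The batches themselves differed by -0.47 ± 0.16 on the log2 scale, batch 2 lower. The 2D libraries ran from 56.8 CPM through a median of 71.7 to 88.4 CPM, overlapping both day 13 KC groups.

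Set side by side, the 7 transcripts that passed the filter showed the same direction in Matrigel against collagen at day 13, with a median log2 fold change of 1.30 against -0.01 over all tested genes. The threshold for all genes, an adjusted p-value under 0.1 in edgeR's quasi-likelihood test, was passed by 6 of them, all higher, and by 12.9% of all 11144 tested genes in either direction. Cxcl3 did not pass. Because their levels chose these genes, this is no test of them, and nothing is read from this count or from those that follow. The call of Cxcl1 was lost without Matrigel replicate 1 (log2 fold change 1.197), that of Ccl2 without Matrigel replicate 3 (0.995), and that of Cx3cl1 without Matrigel replicate 1 or 2 or without batch 1 collagen replicate 4 or 5 (0.36 to 0.40). Leukocyte markers moved with this comparison in that their summed level was 30.5 to 36.8 CPM in Matrigel and 12 to 21.9 CPM in collagen at day 13. This sum was nearly all Cd68 (32.7 CPM in Matrigel), a lysosomal protein not restricted to leukocytes, and none of the other leukocyte markers exceeded 3 counts in a library of either group.

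Between day 7 and day 13 in collagen, 5 of the 7 were called lower at day 7 (Cxcl5, Cxcl3, Cxcl16, Ccl20 and Cx3cl1) and none higher, where 55.1% of all tested genes were called. The median log2 fold change was -0.94 against 0.01 over all genes, and Cxcl1 and Ccl2, at -0.32 ± 0.43 and -0.30 ± 0.41, were not called. In KPC against KC organoids of batch 2, 3 of the 7 were called lower (Cxcl5, Cxcl1 and Cxcl3), beside 19.9% of all genes. The call of Cxcl1 was lost without KC replicate 1 or 2 or KPC replicate 2 or 3 (log2 fold changes from -1.46 to -1.12). It was also lost against all 8 KC collagen libraries of day 13 (-0.97). Cxcl16, Ccl20 and Ccl2 overlapped between the genotypes. Between batch 2 and batch 1 of KC collagen organoids of day 13, 1 of 7 was called, Cx3cl1, beside 37.3% of all genes.

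**Figure D2:**
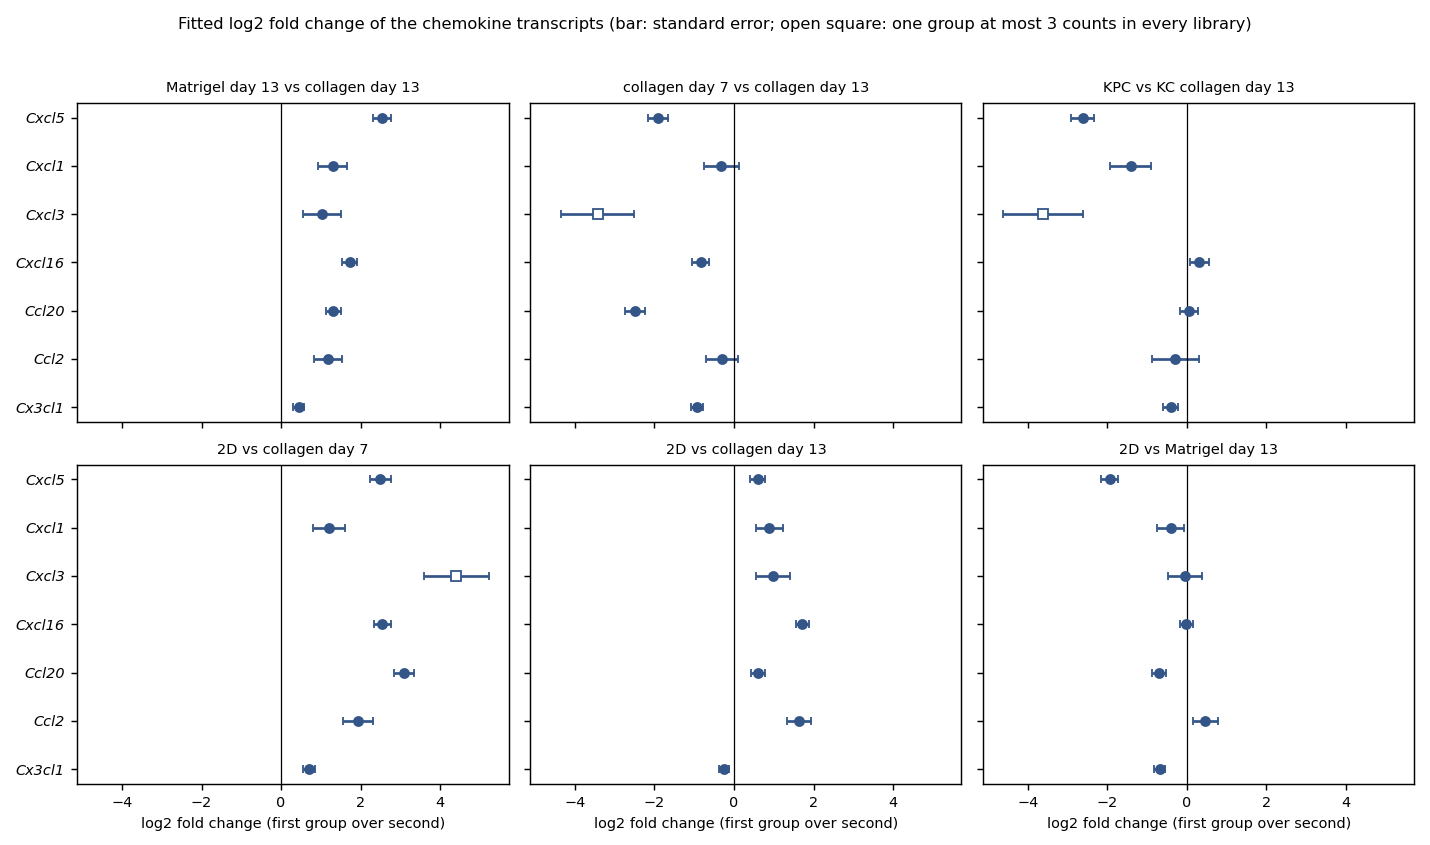
Fitted log2 fold change (x axis, first group over second) of the 7 chemokine transcripts that passed the filter (y axis) in 6 comparisons, with the standard error as a bar; open squares are Cxcl3 values where 1 of the groups compared had no library above 3 counts, which are no measure of size. In Matrigel against collagen at day 13 every value was above 0, from 0.44 for Cx3cl1 to 2.55 for Cxcl5.

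The 2D cells stood above day 7 organoids for all 7 transcripts that passed the filter, which were all called, beside 51.2% of all genes. With replicates 4 to 6 alone Cxcl1 was not called (log2 fold change 0.44, against 1.93 with replicates 1 to 3). Against collagen organoids of day 13, 6 of 7 were called higher, all but Cx3cl1, beside 49.6% of all genes. Against Matrigel, 3 of 7 were called lower, Cxcl5 (log2 fold change -1.95 ± 0.21), Ccl20 (-0.70 ± 0.18) and Cx3cl1 (-0.68 ± 0.14), beside 42% of all genes. Each set alone kept these 3, at -1.67 and -2.32 for Cxcl5, -0.41 and -1.05 for Ccl20 and -0.93 and -0.55 for Cx3cl1 (replicates 1 to 3 and 4 to 6). With TMM scaling the sets went opposite ways for Cxcl16, called higher than Matrigel at 0.34 with replicates 1 to 3 and lower at -0.44 with replicates 4 to 6. Ccl2 was called higher with replicates 1 to 3 (1.07, against -0.24 with 4 to 6) and Cxcl1 lower with replicates 4 to 6 (-1.23, against 0.33 with 1 to 3). With scaling by library size alone, the whole 2D group was called lower than Matrigel for Cxcl16 (-0.34) and Cxcl1 (-0.71). Each set alone was not fitted with that scaling. These comparisons share the 2D libraries, and their organoid groups serve in the comparisons above.

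The sets of 2D replicates differed in the scaled levels of the chemokines themselves. Replicates 1 to 3 held 489 ± 12.3 CPM of Cxcl5 and replicates 4 to 6 held 319 ± 8.9 (SD, n = 3 each), and the other values likewise fell apart without overlap for Cxcl1 (22.5 ± 3.2 and 7.63 ± 2.36), Ccl2 (53.5 ± 2.9 and 22.2 ± 0.6), Cxcl16 (161 ± 15.9 and 95.9 ± 3.5) and Ccl20 (133 ± 14.1 and 87.1 ± 10). All of these were lower in replicates 4 to 6, from 0.34 of the level for Cxcl1 to 0.655 for Ccl20. Cx3cl1 went the other way, at 61.0 ± 7.2 and 81.2 ± 7.2 CPM, and Cxcl2 and Cxcl3 overlapped. The TMM factors were 0.738 to 0.772 in replicates 1 to 3 and 1.035 to 1.062 in replicates 4 to 6. This scaling itself raises the CPM of the first set against the second. How far the sets differ without it was not tested. With replicates 4 to 6 alone, the log2 fold change over collagen day 13 was 0.23 for Cxcl5, 0.26 for Ccl20, 0.08 for Cxcl1 and 0.62 for Cxcl3, none called, and remained called for Cxcl16 (1.28) and Ccl2 (0.92). With replicates 1 to 3 alone these values were 0.88, 0.91, 1.62, 1.43, 2.06 and 2.23. Scaling by library size alone gave 0.33 for Cxcl5 over collagen day 13, not called. The calls over day 13 also rested on single libraries for Cxcl1, lost without 2D replicate 1 or 3 (0.68 and 0.71), and for Cxcl3, lost without 2D replicate 2, 3 or 4 or batch 1 collagen replicate 2 or 4 (0.75 to 0.93). Fibroblast markers summed to 40.6 to 130 CPM in 2D and 33.2 to 69 CPM in collagen at day 13, and their part in the 2D results was not tested.

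The other genes of the pathway were taken from 6 lists with 128 genes, of which 109 were in the table and 71 passed the filter. These genes were not used to choose the chemokines, and their adjusted p-values are those of edgeR's quasi-likelihood test over all 11144 genes. The lists were chosen with earlier results of these data known, so that their counts and p-values are no independent test. In Matrigel against collagen at day 13, 18 of the 71 rose and 4 fell, beside 12.9% of all genes called, with a median log2 fold change of 0.24 against -0.01 over all genes. At day 7 against day 13, 14 rose and 24 fell (median -0.11), and in KPC against KC, 7 rose and 10 fell (median -0.04), beside 55.1% and 19.9% of all genes, so that both counts lay close to the background. Without KC replicate 2 of batch 2 or without KPC replicate 3 this last number was 11 in place of 17 genes, and scaling by library size alone left 6 that rose and 3 that fell. The 2D cells against day 7, against day 13 and against Matrigel gave 20 higher and 20 lower, 12 and 23, and 4 and 29, and with scaling by library size alone 14 and 22, 9 and 28, and 2 and 39. All genes were called at 51.2%, 49.6% and 42% in these comparisons. With 2D replicates 1 to 3 alone the lists gave 19 and 20, 14 and 23, and 7 and 31, and with replicates 4 to 6 alone 21 and 18, 9 and 17, and 7 and 25. The calls of 2D list genes named below were kept with each set.

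Among the 30 other chemokine ligands, 19 were in the table and 4 passed the filter, Cxcl12, Cxcl15, Ccl7 and Ccl25. Cxcl12, which binds Cxcr4 and retains leukocytes and stem cells, rose in KPC organoids, to 38.7, 52.3 and 43.5 CPM from 9.88, 8.32 and 11.9 CPM in KC (log2 fold change 2.15 ± 0.35, adjusted p = 7.98e-05, edgeR). In the same KPC libraries Cxcl5 and Cxcl1 were lower than in KC of batch 2. Cxcl15, a gene that lies between Cxcl3 and Cxcl1, was a transcript of 2D cells, with 69.4, 72.3 and 75.4 CPM in replicates 1 to 3 and 9.08, 7.64 and 14.1 CPM in replicates 4 to 6. It held 1.43 to 3.69 CPM in collagen organoids of day 13, batch 1 (2D against these, log2 fold change 3.99 ± 0.63, adjusted p = 2.63e-05). In Matrigel it held 2.73, 2.16 and 2.31 CPM, which overlapped collagen at day 13. Of the same cluster, Cxcl5 and Cxcl1 were higher in Matrigel, while Cxcl3, next to Cxcl15, was not called (log2 fold change 1.04 ± 0.47). Ppbp and Pf4, the genes between Cxcl5 and Cxcl3, had at most 6 and 5 counts in any library.

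The receptors of these chemokines that were analysed had few or no counts. Of 23 receptor genes 16 were in the table, and 2 passed the filter, the scavenger receptor Ackr3 and the non-signaling receptor Ccrl2. Cxcr2 and Ccr2 had at most 1 count in any library, Cxcr6 at most 2 and Cx3cr1 at most 5, and Ccr6 was not analysed here. Ackr3, which takes up Cxcl12, rose in KPC, to 15.3 from 6.68 CPM (log2 fold change 1.17 ± 0.35, adjusted p = 0.024, edgeR), and in Matrigel, to 13.9 from 6.45 CPM (1.11 ± 0.28, adjusted p = 0.0117). The first call was lost without KC replicate 2 of batch 2 or KPC replicate 1 (0.93 and 1.02) and the second without Matrigel replicate 1 (0.97).

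The NF-kB target and feedback genes accounted for most of the list genes that rose in Matrigel. Of 23 tested, 11 rose and 1 fell against collagen at day 13, beside 12.9% of all genes called, with a median log2 fold change of 0.52. Vcam1, an adhesion molecule for leukocytes, rose to 68.7, 60.1 and 75.8 CPM from 16.2 to 32.0 CPM (log2 fold change 1.44 ± 0.16, adjusted p = 7.65e-07, edgeR). Tnfaip2 rose to 358, 368 and 385 CPM from 129 to 172 CPM (1.34 ± 0.12, adjusted p = 1.74e-08), and Csf1, the macrophage growth factor, to 24.9 from 10.04 CPM on average (1.27 ± 0.28, adjusted p = 0.00383). The gene that fell, Sod2, did so by 0.33 on the log2 scale (adjusted p = 0.0821), a call lost without Matrigel replicate 1 (-0.23) or 3 (-0.37) or without batch 1 collagen replicate 2, 3, 4 or 5 (-0.34 to -0.32). The list split at day 7 against day 13, where 5 rose and 7 fell, in KPC (2 and 3), in 2D against day 7 (7 and 6) and in 2D against day 13 (4 and 7). It went mostly 1 way in 2D against Matrigel, where 2 rose and 14 fell (median log2 fold change -0.48), a comparison that shares the Matrigel libraries. Between the batches 4 rose and 0 fell. The shares of all genes called in these comparisons, in the same order, were 55.1%, 19.9%, 51.2%, 49.6%, 42% and 37.3%.

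**Figure D3:**
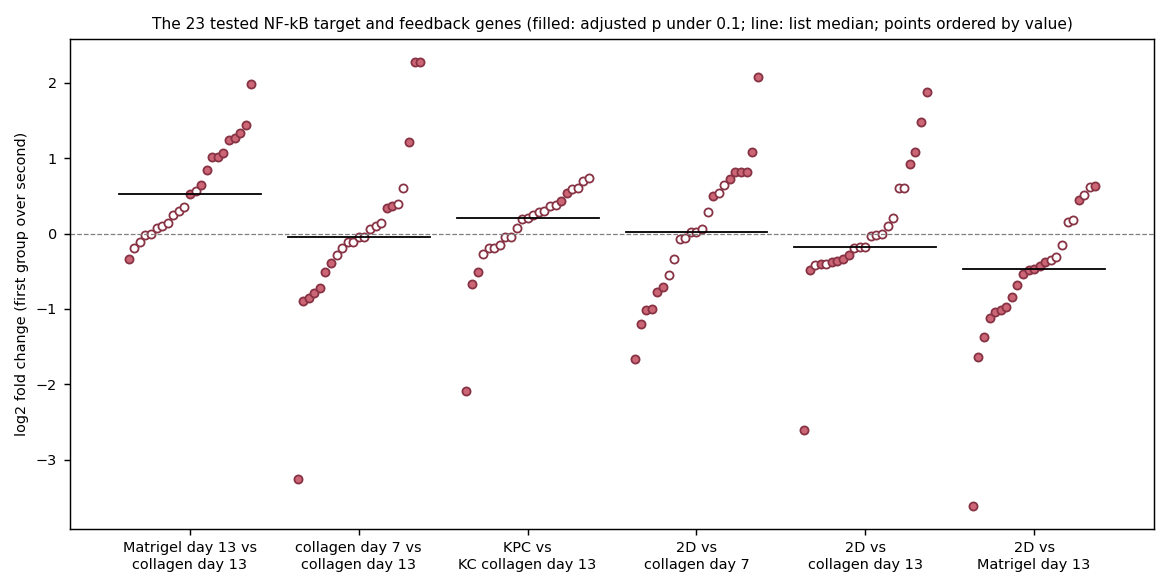
Log2 fold change (y axis, first group over second) of the 23 tested NF-kB target and feedback genes, without the chemokines, in 6 comparisons (x axis); filled points have an adjusted p-value under 0.1 and lines mark the list median. The median was 0.52 in Matrigel against collagen at day 13 and -0.48 in 2D against Matrigel, and Il1a is the lowest point in 4 of the 6 comparisons.

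Il1a, the cytokine interleukin 1 alpha and itself an inducer of NF-kB, had group means from 3.63 to 72.2 CPM. It held 76.5, 72.3 and 67.7 CPM in Matrigel, 22.4 to 41.0 CPM in collagen at day 13 (batch 1) and 3.41, 5.78 and 1.69 CPM at day 7. It fell at day 7, where Cxcl5 and Ccl20 were also low (log2 fold change -3.25 ± 0.26, adjusted p = 1.54e-10, edgeR against day 13). In KPC organoids it held 10.2, 9.52 and 9.97 CPM against 46.8, 40.9 and 39.1 CPM in KC (-2.09 ± 0.25, adjusted p = 1.44e-06), and in 2D 4.09 to 8.68 CPM (-2.61 ± 0.20 against day 13, adjusted p = 3.47e-10). Cxcl16 and Ccl2 of the 2D libraries lay above those of day 13. Any part of Il1a in the chemokine levels was not tested. Other genes of the NF-kB list rose at day 7: Ptgs2, the inducible prostaglandin synthase, rose to 27.6 from 5.67 CPM (2.28 ± 0.35, adjusted p = 7.01e-06) and Tnfaip2 to 340 from 147 CPM (1.21 ± 0.12, adjusted p = 7.47e-09).

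**Figure D4:**
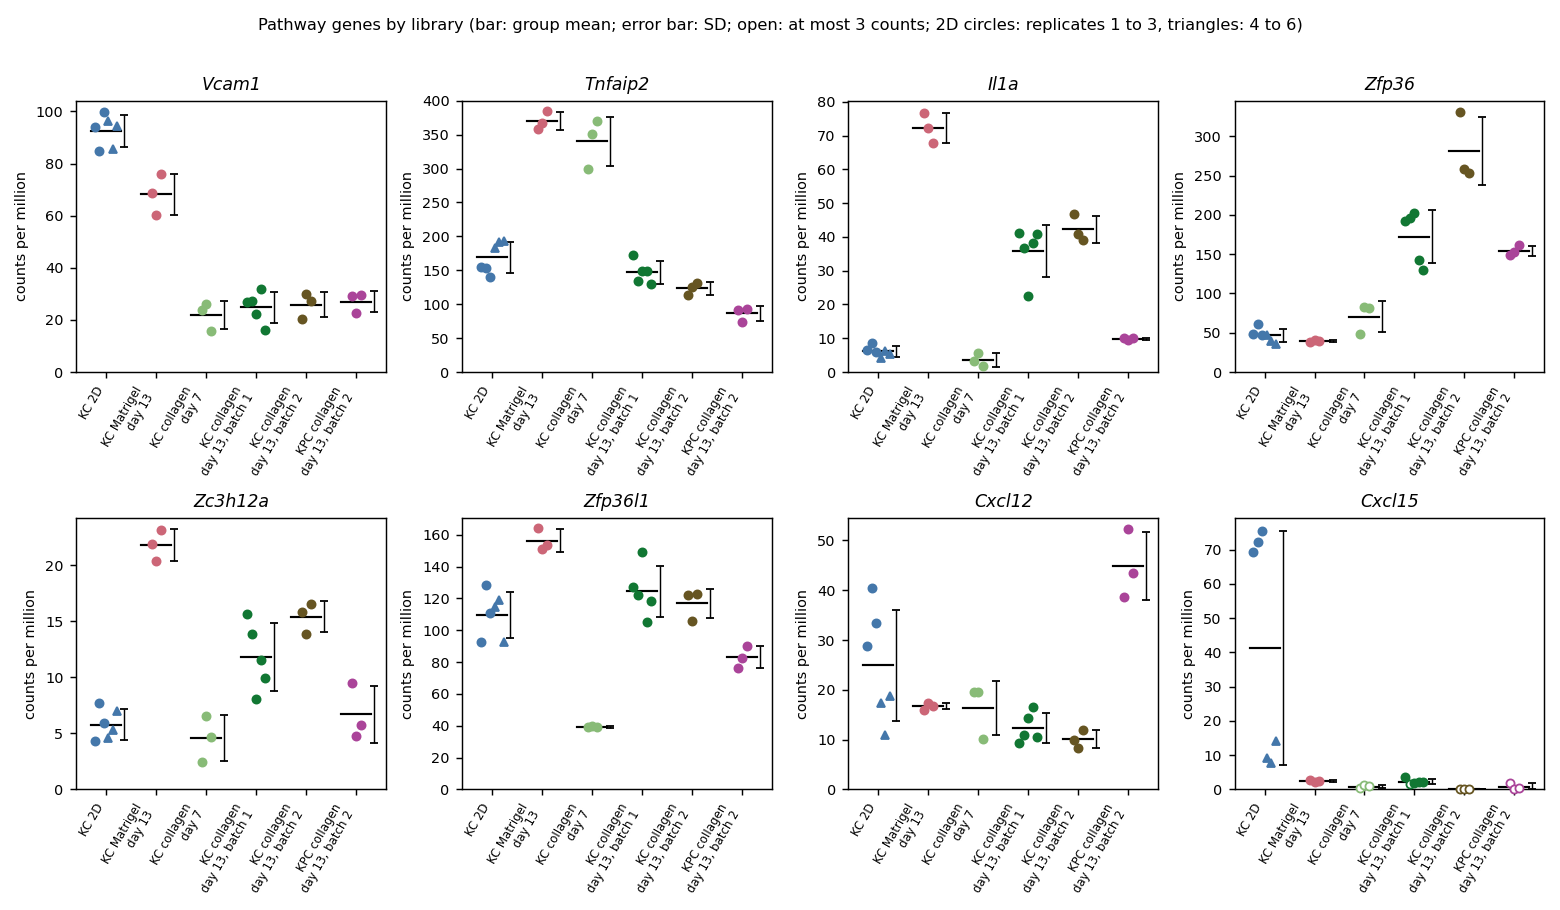
CPM (y axis, linear, from 0) of 8 genes of the pathway lists in each library, by group (x axis), with the group mean as a bar and the SD as an error bar cut at 0; open symbols are libraries with at most 3 counts, and 2D replicates 4 to 6 are triangles. Il1a stood at 67.7 to 76.5 CPM in Matrigel and at 1.69 to 5.78 CPM at day 7, and Cxcl15 at 69.4 to 75.4 CPM in 2D replicates 1 to 3 only.

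Of the 25 tested receptors and signal transducers upstream of NF-kB, 3 rose and 1 fell in Matrigel, 3 rose and 11 fell at day 7, and 3 rose and 2 fell in KPC, beside 12.9%, 55.1% and 19.9% of all genes called. In 2D, 7 rose and 5 fell against day 7, 2 and 8 against day 13, and 0 and 7 against Matrigel, beside 51.2%, 49.6% and 42% of all genes. Cd14, a co-receptor for bacterial lipopolysaccharide, was higher in 2D than in day 7 and day 13 collagen organoids, at 193 CPM against 50.5 and 87.9 CPM (log2 fold changes 1.93 ± 0.16 and 1.14 ± 0.13, adjusted p = 1.96e-09 and 1.95e-07, edgeR). Matrigel organoids, at 208 CPM, were likewise above collagen at day 13 (1.24 ± 0.15, adjusted p = 1.49e-06, edgeR). Il1rn, the natural antagonist of the Il1 receptor, was 3.01-fold lower in 2D than at day 7, where it reached 989.6 CPM (adjusted p = 6.68e-08). Tlr3, a sensor of double-stranded RNA, was 2.11-fold lower in 2D than in Matrigel (adjusted p = 0.00547).

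The decay and stability factors include proteins that act on AU-rich mRNAs of the kind shown above for Cxcl1. Zfp36, which triggers their decay, fell in Matrigel, to 38.7, 41.1 and 39.3 CPM from 130 to 203 CPM in collagen at day 13 (log2 fold change -2.12 ± 0.19, adjusted p = 1.74e-08, edgeR). Cxcl5 and Ccl20 were highest in Matrigel. Zfp36 also fell in 2D (36.3 to 60.7 CPM, -1.91 ± 0.15 against day 13, adjusted p = 3.57e-10, edgeR). At day 7, where Cxcl5 and Ccl20 were low, it fell to 48.3, 82.4 and 80.9 CPM (-1.28 ± 0.17, adjusted p = 1.22e-06, edgeR). In KPC it fell to 154 from 281 CPM in KC of batch 2 (-0.86 ± 0.18, adjusted p = 0.00172, edgeR). That call was lost against all 8 KC collagen libraries of day 13. Cxcl5 and Cxcl1 were lower in KPC than in KC of batch 2, while Ccl20 overlapped. The call of Cxcl1 was likewise lost against all 8 KC libraries (-0.97). Any part of Zfp36 in the chemokine levels was not tested. Zc3h12a, an endonuclease of inflammatory mRNAs that NF-kB also induces, rose in Matrigel to 21.8 from 11.8 CPM (0.87 ± 0.21, adjusted p = 0.00872) and fell in KPC to 6.68 from 15.4 CPM (-1.21 ± 0.30, adjusted p = 0.00702). Zfp36l1 fell at day 7, to 39.0, 40.0 and 39.0 CPM from 105 to 149 CPM (-1.66 ± 0.13, adjusted p = 1.76e-10). In all, 2 of the 11 factors rose and 1 fell in Matrigel, 4 rose and 3 fell at day 7, and none rose and 4 fell in KPC, beside 12.9%, 55.1% and 19.9% of all genes called.

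Among the proteases that release or trim chemokines, 6 of 8 passed the filter. Of these, 1 rose and 1 fell in Matrigel, 1 rose and 2 fell at day 7, and none rose and 1 fell in KPC, beside 12.9%, 55.1% and 19.9% of all genes called. Adam10, a sheddase of Cxcl16 and Cx3cl1, fell in 2D, to 100.3 from 157 CPM in collagen at day 13 (log2 fold change -0.63 ± 0.11, adjusted p = 5.81e-05, edgeR), and was higher in batch 2 than in batch 1 (0.63 ± 0.13, adjusted p = 0.000427). Adam17, the other sheddase, named here outside the rule for named genes and after its values were seen, held 20.7 to 24.8 CPM in the group means and was not called in any comparison, with log2 fold changes from -0.23 to 0.17 (SE 0.14 to 0.19).

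The genes most like each chemokine over the 23 libraries, by Pearson's r of log2 CPM, are a description of points that share groups, batches and library scaling. For Cxcl5 they were Vnn1 (r = 0.928), Bsg and Pkd2, for Cxcl16 Pdzk1ip1 (0.94), Prxl2a and Cebpd, and for Ccl20 Bicc1 (0.911), Depp1 and Gstt1. For Ccl2 they were Fbxl5 (0.912), Cav2 and Laptm4a and for Cx3cl1 Rnf145 (0.918), Porcn and Pfkl. Those for Cxcl1, at lower counts, were Tnip3 (0.852), Zfp950 and Trp53inp1, and for Cxcl3 Ifi27 (0.889), Idnk and Ccpg1os. Among the chemokines themselves r ran from 0.327 for Ccl2 and Cx3cl1 to 0.82 for Cxcl5 and Cxcl3, and Cxcl16 and Ccl20 stood at 0.816.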

How the data were processed

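The authors reverse transcribed polyadenylated RNA with barcoded oligo-dT primers carrying unique molecular identifiers (UMIs), sequenced the 3′ ends, and used the Drop-seq pipeline, with GRCm38 and GENCODE gene definitions, for alignment and UMI counting. The deposited values are whole-number UMI counts of 27207 genes, without normalization. Counts were analysed in R 4.3.3 with edgeR 4.0.16 (TMM, filterByExpr over the 6 groups, which left 11144 genes, quasi-likelihood F-test, one fit of all 23 libraries, Benjamini-Hochberg adjustment over all tested genes, calls at an adjusted p-value under 0.1). Log2 CPM used a prior count of 2. The scripts were tested on simulated data. Replicates are cultures of the cells of 1 mouse per genotype, so that p-values measure the spread between cultures. The members, the gene lists and the rules were chosen with earlier results of these data known. Named list genes were up to 3 called in each direction with the largest log2 fold change and a mean of 10 CPM or more in either group, and like genes the 3 with the highest r. Of these the text names a part. A gene or group was near the detection limit when it failed the filter or had at most 3 counts in every library. Alternatives were DESeq2 1.42.0, its size factors, scaling by library size, no filter, a fit of the compared groups, the replicate block, both batches of day 13 and each library left out. Positions and UTRs came from GENCODE M21 and promoters from RefSeq, both on GRCm38. The other alleles of the mouse lines are not reported here.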

Additional observations from a re-analysis of the deposited data

How the results depend on the processing

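Of 777 chemokine log2 fold changes recomputed under the alternatives, 726 kept their side of the threshold, 30 lost a call and 21 gained one. The sign changed in 31, all of fold changes not called to begin with, of which 2 gained a call. Of 2007 values of the named list genes, 1841 kept direction and call, 165 lost a call and 1 changed sign: Traf3ip2 in 2D against collagen day 13, at -0.20 with 2D replicates 1 to 3 only, a setting added after the data were seen. For the 17 list genes called in KPC against KC, scaling by library size alone left 9, and leaving out 1 library left 11 to 15. The cause was not tested. That scaling moved the median log2 fold change of all genes to 0.133 in KPC against KC, to -0.137, -0.196 and -0.246 in 2D against day 7, day 13 and Matrigel, and to -0.181 between the batches. With it 1265 of 1863 called genes were higher in KPC (in place of 1068 of 2223), 1997 of 5321, 1692 of 5305 and 1059 of 4540 in the 2D comparisons (in place of 2947 of 5706, 2934 of 5526 and 2444 of 4680), 1416 of 4018 between the batches (in place of 2149 of 4162) and 654 of 954 in Matrigel (in place of 738 of 1439). A fit of KPC and KC alone called 3431 genes, and Matrigel against collagen gave 874 without Matrigel replicate 1 and 959 without replicate 3. Dixon's test found 0 outlying libraries in 16 groups of values, all of them chemokine values in 2D or in collagen day 13 batch 1. The groups of 3 libraries were not tested.

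Replicate numbers did not pair the samples: deviations of same-numbered libraries correlated at -0.119 to 0.188. The block was added to a fit of the compared groups alone. In the batch comparison that fit called 23 list genes without the block and 29 with it, in place of 19. In Matrigel against collagen it called 1902 genes without the block and 2382 with it, in place of 1439. Low counts limit Cxcl2, Cxcl3 and, in part, Cxcl1 and Ccl2.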
